A study of Mus musculus with 4 samples.

Results

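Histone genes, taken as every gene symbol of the H1f, H2ac, H2bc, H2az, H2ax, H3c, H4c and H3f3 series, numbered 49 of the 12347 genes named on 4 two-colour oligonucleotide arrays of mouse NIH 3T3 fibroblasts. They were read by 53 probes with a single gene name, and 4 more probes carried several histone names, so that 57 of the 22534 probes stood for histones. A ratio was present on all 4 arrays for 25 of the histone genes, among 4754 such genes in the whole series. Probes with ratios on the siSelT-5 arrays only were kept apart, so the presence of values decided which members are described together, and no test was made on that presence. The 25 genes comprised 1 of the H1 class, 10 of H2A, 7 of H2B, 5 of H3 and 2 of H4.

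The study aimed to lower selenoprotein T, a small selenium-containing protein of the endoplasmic reticulum, by RNA interference. NIH 3T3 is an established line of mouse embryonic fibroblasts. One culture type carried the plasmid pU6-m3 with the insert siSelT-1, aimed at nucleotides 205 to 224 of the Selt mRNA, and the other carried siSelT-5, aimed at nucleotides 971 to 989. The comparison culture carried pU6-m3 without an insert. Cells of all groups were selected with 150 µg/ml hygromycin B and grown in DMEM with 10% fetal bovine serum, antibiotics and 100 nM sodium selenite. Each construct was measured on 2 arrays against vector RNA, and the labels describe the 2 replicates as RNA of separate cultures taken at different times. Whether each construct stands for 1 clone or a pool of transfected cells is not given in the sources used here.

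Histones form the protein core of the nucleosome, around which DNA is wound. H2A, H2B, H3 and H4 make the core particle and H1 binds the linker DNA. Most copies of these genes lie in clusters, are transcribed mainly in S phase, when new DNA must be packaged, and yield mRNAs that end in a conserved stem-loop in place of a poly(A) tail. The variant genes H2az1, H2az2, H3f3a and H3f3b are expressed through the cell cycle as ordinary polyadenylated mRNAs, and H2ax makes both kinds of mRNA. The cDNA of these arrays was primed with oligo-dT, per the labels' protocols, and how far each kind of histone mRNA was copied was not tested.

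Values are the deposited log ratios of knockdown over vector, read as log2, a direction that rests on how the titles order construct and vector and on which dye each carried, and a ratio of the opposite sense would turn every sign. Between 7689 and 20268 probes had a value per array, with 20268 and 18361 for siSelT-5 but 7689 and 9232 for siSelT-1, and the rule that left spots without a value is not given in the sources used here. Over all 4754 genes the siSelT-1 ratios had a median of 0.14 and the siSelT-5 ratios one of 0.38. Counts are therefore repeated after subtracting from each array the median of the 7038 probes that all arrays share, called centring below. Dyes were not swapped, and a gene-specific dye effect therefore cancels only in the comparison of the constructs with each other. The knockdown itself was not analysed here, since 0 probes were named for Selt or Selenot. Markers of fibroblasts had ratios for 8 of 12 listed genes, which show a change and not a level, with 4 higher and 1 lower with siSelT-5 (47.6% and 6.29% of all genes) and 1 higher and 3 lower with siSelT-1 (10.3% and 3.37%). For other cell types, 2 of 2 measured endothelial markers, 1 of 1 muscle and 1 of 1 adipocyte rose with siSelT-5 (47.6% of all genes). With siSelT-1 the 2 endothelial genes and the adipocyte gene rose (10.3%), and the 1 macrophage gene passed with neither construct. After centring 0 of these genes were higher with siSelT-5 (19.2%), and the macrophage gene was lower (20.0%). The siSelT-1 ratio of 1 endothelial gene stayed higher (3.83%). Fibroblast markers then gave 3 higher and 2 lower with siSelT-5, and 0 and 3 with siSelT-1 (3.83% and 5.07%). The part of all these markers in the histone ratios was not tested. In RNA of a whole culture, a change in the share of cells in S phase and a change in RNA per cell cannot be told apart.

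Promoters of 5 members are shown first, so that the bases before the start sites can be set beside the ratios of each class. The sequences are from RefSeq, build GRCm38.p6, and a promoter was found for 23 of the 25 genes with values on all arrays and for 45 of the 49 histone genes. In the windows below, capitals mark matches to the motifs, searched on both strands, so that CCAAT also appears as ATTGG. The motifs were CCAAT, known as the CCAAT box, the octamer ATTTGCAT and TATAAA, known as the TATA box. H2ac13 and its divergent neighbour H2bc13, whose start sites lie 228 bases apart, share the whole first window (chr13:21716184-21716411, plus strand). H2ac12 shares the second with H2bc12, 177 bases away (chr13:22035644-22035820, minus strand). H3c2 (chr13:23752195-23752344, plus strand), H4c1 (chr13:23761250-23761399, minus strand) and the variant gene H2az1 (chr3:137864337-137864486, plus strand) are given by the 150 bases before their starts.
H2ac13: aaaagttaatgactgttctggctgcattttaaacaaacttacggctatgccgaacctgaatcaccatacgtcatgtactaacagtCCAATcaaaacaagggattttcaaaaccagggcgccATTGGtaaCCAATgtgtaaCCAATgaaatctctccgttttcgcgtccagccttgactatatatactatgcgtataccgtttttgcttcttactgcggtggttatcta
H2ac12: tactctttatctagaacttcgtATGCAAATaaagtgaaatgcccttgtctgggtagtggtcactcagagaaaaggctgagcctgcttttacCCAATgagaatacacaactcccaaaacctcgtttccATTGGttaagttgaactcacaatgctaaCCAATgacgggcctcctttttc
H3c2: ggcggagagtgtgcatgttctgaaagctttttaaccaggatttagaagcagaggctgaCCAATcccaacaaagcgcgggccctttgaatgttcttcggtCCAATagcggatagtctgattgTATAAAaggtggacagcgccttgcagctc
H4c1: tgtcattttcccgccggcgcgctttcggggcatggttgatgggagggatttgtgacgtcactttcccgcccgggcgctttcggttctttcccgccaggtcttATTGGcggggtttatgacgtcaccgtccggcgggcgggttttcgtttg
H2az1: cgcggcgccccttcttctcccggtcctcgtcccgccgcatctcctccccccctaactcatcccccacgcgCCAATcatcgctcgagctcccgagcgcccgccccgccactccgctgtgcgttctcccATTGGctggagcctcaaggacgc
The H2ac13 window held 4 CCAAT boxes, at 143, 107, 99 and 88 bases before the start of H2ac13. The H2ac12 window held 3 CCAAT boxes and 1 octamer. In H3c2 there were 2 CCAAT boxes and a TATA box 29 bases before the start, in H4c1 a single CCAAT box, and in H2az1 a pair of CCAAT boxes 80 and 23 bases before the start.

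Over the 250 bases before the start, a CCAAT box was present in 17 of 17 replication-dependent H2A promoters and in 15 of 15 H2B promoters, against 33.8% of 32851 mouse promoters. It was present in 8 of 10 replication-dependent H3 promoters, 3 of 11 H4 promoters and 7 of 10 H1 promoters. These sets were not limited to the genes on the arrays, with for example 10 H1 promoters beside 4 H1 genes. Their shares therefore do not describe the measured genes alone. The octamer, the binding sequence of POU factors such as Oct1, was found in 6 of 17 H2A and 7 of 15 H2B promoters, in 0 of 10 replication-dependent H3 and 0 of 11 H4 promoters, and in 1 of 5 variant H2A and H3 promoters, that of H3f3b, against 1.6% of all promoters. Among genes with values on all arrays and a promoter found, only H2ac12, H2ac20, H2bc14 and H3f3b had the octamer. TATAAA was found in 41.2% of H2A, 46.7% of H2B, 40.0% of H3 and 54.5% of H4 promoters, against 12.4% of all. The sequence AAACACAA, known as the H1 box, was found in 4 of 10 H1 promoters, 1 of 17 H2A promoters, 1 of 15 H2B promoters and 1 of 5 variant H2A and H3 promoters, that of H3f3a, against 1.67% of all. Divergent pairs share bases, so their promoters are not independent, and a match is a match of letters only.

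**Figure D1:**
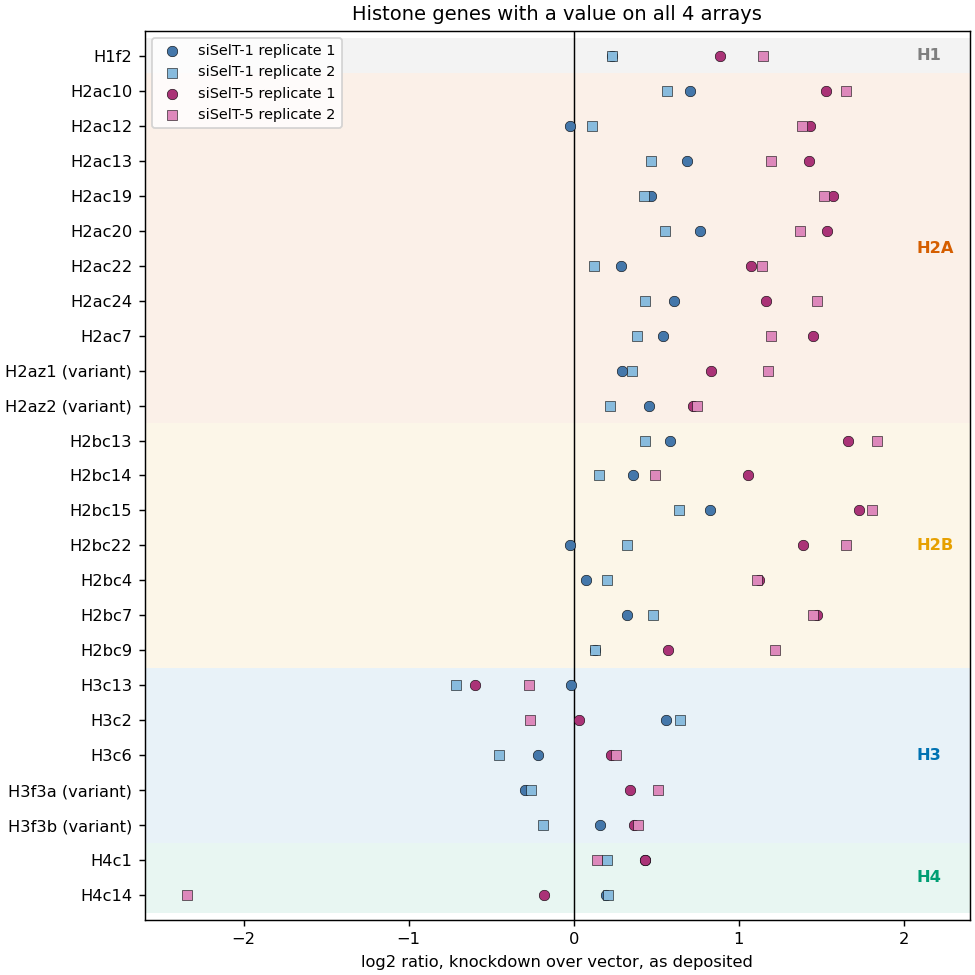
Log2 ratios of knockdown over vector RNA (horizontal axis, as deposited) for the 25 histone genes with a value on all 4 arrays, grouped by class; each symbol is 1 array, circles replicate 1 and squares replicate 2. The siSelT-5 symbols of all H2A and H2B genes lie to the right of their siSelT-1 symbols, while H3 and H4 genes lie between -0.72 and 0.64 apart from the siSelT-5 replicate 2 value of H4c14 at -2.34.

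Among the 25 histone genes with values on all arrays, the ratios of every H2A and H2B gene, of H1f2 and of the H3 variant gene H3f3a rose with siSelT-5, and none fell. Of these, 19 were higher than vector at an adjusted p under 0.05 in limma, against 47.6% of all genes, and 0 were lower (1 at an unadjusted p under 0.05), against 6.29% of all genes. After centring, 16 were higher, against 19.2% of all genes, and 3 were lower, against 20.0%. The median ratio of the 25 genes was 1.11 as deposited and 0.72 after centring. The 3 that were lower after centring were H3c13, H3c2 and H4c14.

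H2A, a partner in the H2A-H2B dimers of the nucleosome, was encoded by 10 measured genes. All 10 rose with siSelT-5, against 47.6% of all genes, with a median ratio of 1.32. After centring all 10 also passed, against 19.2% of all genes, with a median of 0.93. H2ac10 read 0.70 and 0.57 with siSelT-1 (replicates 1 and 2, the order used throughout) and 1.53 and 1.65 with siSelT-5. Its siSelT-5 mean of 1.59 ± 0.08 (SD, n = 2), a 3.01-fold ratio, ranked 23 of 4754 genes from the top, a rank from the bottom if the sense of the ratio were opposite, as for every rank given (limma adjusted p = 0.00202). H2ac19 read 0.47 and 0.43 with siSelT-1 and 1.57 and 1.52 with siSelT-5, where its mean of 1.54 ± 0.04 ranked 28. Both siSelT-5 arrays lay well above both siSelT-1 arrays for these genes, and the replicates lay close together. H2ac20 read 0.77 and 0.55 with siSelT-1 and 1.53 and 1.37 with siSelT-5. H2ac12 read -0.02 and 0.11 with siSelT-1 and 1.43 and 1.38 with siSelT-5, the widest gap between constructs among the H2A genes. Its siSelT-5 mean was 1.41 ± 0.04 (adjusted p = 0.00202) and its siSelT-1 mean was 0.04 ± 0.09 (adjusted p = 0.807).

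The other replication-dependent H2A genes lay in the same band. H2ac7 read 0.54 and 0.39 with siSelT-1 and 1.45 and 1.20 with siSelT-5. H2ac13 read 0.68 and 0.47, then 1.43 and 1.20. H2ac24 read 0.61 and 0.43, then 1.17 and 1.48. These 3 genes had siSelT-5 means of 1.33, 1.31 and 1.32, and their arrays did not overlap between constructs. H2ac22 was the lowest of the 8 replication-dependent H2A genes with siSelT-5, at 1.08 and 1.14, and read 0.28 and 0.13 with siSelT-1. The siSelT-5 means of these 8 genes ran only from 1.11 to 1.59. Coding sequences of the replication-dependent copies are nearly identical within a class, and because the probe sequences were not used here, the signal of one copy cannot be told apart from that of another.

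H2B, the other partner in the dimers that flank the central H3-H4 tetramer, held the 2 histone genes with the highest siSelT-5 means, while its siSelT-1 median of 0.26 lay below the 0.46 of H2A. All 7 rose with siSelT-5, against 47.6% of all genes, with a median ratio of 1.46. After centring 5 passed, against 19.2% of all genes, with a median of 1.07. H2bc15 read 0.83 and 0.64 with siSelT-1 and 1.73 and 1.81 with siSelT-5. Its siSelT-5 mean of 1.77 ± 0.06 (SD, n = 2) ranked 3 of 4754 genes (adjusted p = 0.00202). H2bc13 read 0.58 and 0.43 with siSelT-1 and 1.67 and 1.84 with siSelT-5, and its siSelT-5 mean of 1.75 ± 0.12 ranked 4, a 3.37-fold ratio. With each construct these 2 genes had the highest means of the H2B class. H2bc22 read -0.02 and 0.32 with siSelT-1, on either side of 0, and 1.39 and 1.65 with siSelT-5. H2bc7 read 0.33 and 0.48 with siSelT-1 and 1.48 and 1.45 with siSelT-5.

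Among the remaining H2B genes, H2bc4 was measured by 2 probes, which read 0.18 and 0.25 or -0.03 and 0.16 with siSelT-1 and 0.89 and 1.05 or 1.35 and 1.17 with siSelT-5. The probes of H2bc4 thus gave a like picture, with a gene mean of 1.12 ± 0.01 for siSelT-5. H2bc14 read 0.36 and 0.15 with siSelT-1 and 1.05 and 0.49 with siSelT-5. H2bc9 read 0.13 on both siSelT-1 arrays, and with siSelT-5 0.57 and 1.22. The siSelT-5 replicates of these last 2 genes were far apart, with SDs of 0.40 and 0.46, and neither passed after centring, where H2bc14 was 0.38 (adjusted p = 0.0963) and H2bc9 was 0.50 (adjusted p = 0.0864).

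H1f2, which encodes the linker histone H1.2, was the single H1 gene with a value on all arrays. It read 0.23 on both siSelT-1 arrays, and with siSelT-5 0.89 and 1.15. The siSelT-5 mean of 1.02 ± 0.18 (SD, n = 2) passed as deposited (adjusted p = 0.0024) and after centring (0.62, adjusted p = 0.0168). The other H1 probes, for H1f4, H1f5 and the variant H1f10, had a value on 1 siSelT-5 array only, at -2.50, -2.43 and -1.65, so H1 as a class rests on 1 gene.

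With siSelT-5, H3 and H4 genes, whose products form the central tetramer of the nucleosome, stood apart from H2A and H2B. With siSelT-1 the H3 median was -0.28, while the H4 and H2B medians were both 0.26. The median siSelT-5 ratio of the H3 genes was 0.24 as deposited and -0.15 after centring, and that of the 2 H4 genes -0.49 and -0.88, or 0.29 as deposited when H4c9, with 1 siSelT-1 value, was counted as well. Of the 5 H3 genes only H3f3a passed with siSelT-5, and of the 2 H4 genes neither did. Of all genes, 47.6% were higher and 6.29% lower. After centring 0 of these 7 histone genes were higher and 3 were lower, against 19.2% and 20.0% of all genes. H3c2 read 0.56 and 0.64 with siSelT-1 and 0.03 and -0.26 with siSelT-5. With siSelT-1 it rose as deposited (0.60 ± 0.06, adjusted p = 0.0381) but did not pass after centring (0.46, adjusted p = 0.0661) or with a replicate block (adjusted p = 0.0592). With siSelT-5 it was -0.12 ± 0.21 (adjusted p = 0.457), or -0.51 after centring (adjusted p = 0.0238). H3c13 read -0.02 and -0.72 with siSelT-1 and -0.60 and -0.27 with siSelT-5, with overlapping arrays. Its siSelT-5 mean of -0.43 ± 0.23 did not pass as deposited (adjusted p = 0.111) and passed as lower after centring (-0.83, adjusted p = 0.0241). H3c6 read -0.22 and -0.45 with siSelT-1 and 0.22 and 0.25 with siSelT-5, and neither mean passed.

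H4c1 read 0.44 and 0.20 with siSelT-1 and 0.43 and 0.14 with siSelT-5, the closest match between constructs of any histone gene. H4c14 read 0.20 and 0.21 with siSelT-1, and -0.18 and -2.34 with siSelT-5. The last of these values set its siSelT-5 mean of -1.26 ± 1.53, which did not pass (adjusted p = 0.0666). After centring the mean was -1.66 (adjusted p = 0.0456). Without siSelT-5 replicate 1, H4c14 passed at -2.34 (adjusted p = 0.000121), but the spread behind that p came from the siSelT-1 arrays alone, so its call rests on 1 array.

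Within each array, the median of the 15 replication-dependent H2A and H2B genes exceeded that of the 5 replication-dependent H3 and H4 genes. The gap was 0.27 and 0.22 with siSelT-1 and 1.40 and 1.64 with siSelT-5, a measure that centring does not change. H2A and H2B differed little from each other, with replication-dependent H2A above H2B by 0.25, 0.10 and 0.05 on 3 arrays and below it by 0.08 on siSelT-5 replicate 2. These are medians of 8 genes against 7, given as a description with no test.

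**Figure D2:**
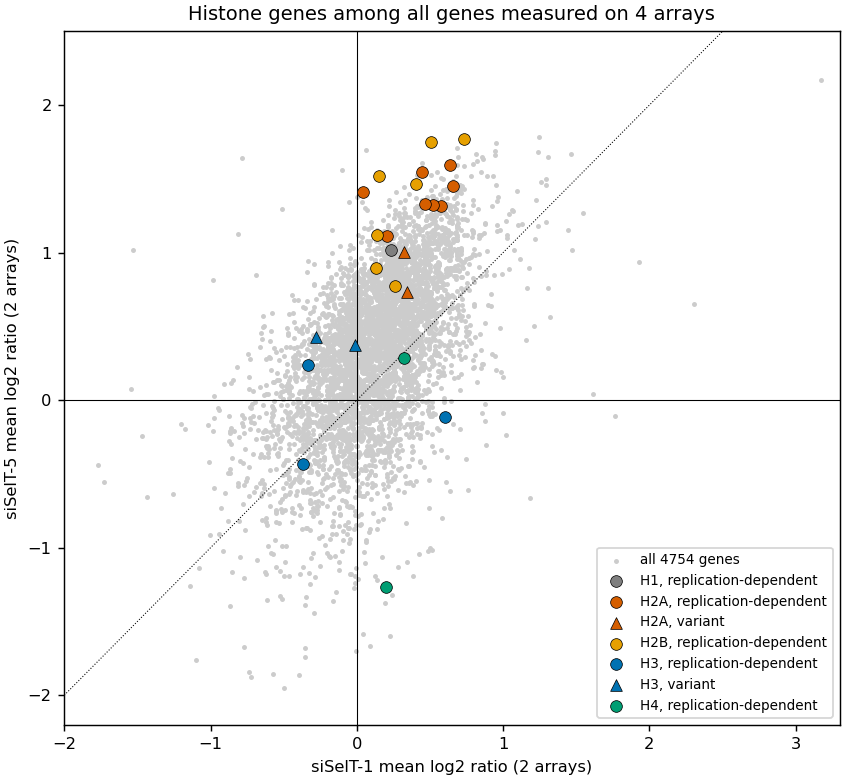
Mean log2 ratio of 2 siSelT-5 arrays (vertical) against that of 2 siSelT-1 arrays (horizontal) for all 4754 genes with a value on all 4 arrays (grey), with histone genes coloured by class, circles for replication-dependent and triangles for variant genes; the dotted line marks equal ratios. The replication-dependent H2A genes all lie above 1.1 on the vertical axis, and H4c14 and H3c2 are the histone genes farthest below the line of equal ratios.

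Replication-dependent genes had a median siSelT-5 ratio of 1.31 over 21 genes and the 4 variant genes a median of 0.58. Of these, 16 and 3 were higher, against 47.6% of all genes. After centring 14 and 2 were higher (medians 0.92 and 0.19), against 19.2% of all genes, and 3 and 0 were lower, against 20.0%. The order depended on the class. Within H2A, the 8 replication-dependent genes had a median of 1.37 and the 2 H2A.Z genes, whose products mark promoters and regulatory elements, a median of 0.87. H2az1 read 0.29 and 0.35 with siSelT-1 and 0.83 and 1.18 with siSelT-5 (mean 1.01 ± 0.24, adjusted p = 0.00274). H2az2 read 0.46 and 0.22, then 0.72 and 0.75 (mean 0.74 ± 0.02, adjusted p = 0.0047). Both H2A.Z genes therefore rose with siSelT-5. They lay below 1.11, the lowest replication-dependent H2A mean among genes with values on all arrays. The H2ac18 probe with 1 siSelT-1 value, outside that set, had a siSelT-5 mean of 0.81, between the H2A.Z genes. The within-array gap between the medians of replication-dependent H2A and H2A.Z was 0.20 and 0.14 with siSelT-1 and 0.67 and 0.41 with siSelT-5.

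Within H3, the order was the opposite with siSelT-5. The H3.3 genes H3f3a and H3f3b encode the same replacement histone, which is laid down outside replication. H3f3a read -0.29 and -0.26 with siSelT-1 and 0.34 and 0.51 with siSelT-5. Its siSelT-5 mean of 0.43 ± 0.12 passed as deposited (adjusted p = 0.0227), but was 0.03 after centring (adjusted p = 0.826) and did not pass without either siSelT-1 array (adjusted p = 0.0902). H3f3b read 0.16 and -0.19, then 0.36 and 0.39, and its siSelT-5 mean of 0.38 ± 0.02 did not pass (adjusted p = 0.0518). The median of the 3 replication-dependent H3 genes minus that of the H3.3 genes was 0.05 and -0.23 with siSelT-1 and -0.32 and -0.71 with siSelT-5.

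With siSelT-1, 7 histone genes were higher than vector, against 10.3% of all genes, and 0 were lower (2 at an unadjusted p under 0.05), against 3.37%. They were H2ac10, H2ac13, H2ac19, H2ac20, H2bc13, H2bc15 and H3c2, with means from 0.45 (H2ac19, adjusted p = 0.0495) to 0.73 (H2bc15, adjusted p = 0.0323). After centring 2 remained, H2ac20 (0.52, adjusted p = 0.044) and H2bc15 (0.59, adjusted p = 0.0374), against 3.83% of all genes, and 0 were lower, against 5.07%. Leaving out either siSelT-1 array gave 0 higher (0.0% of all genes), and leaving out either siSelT-5 array gave 13 (32.4%). For both constructs together, 19 histone genes were higher, against 45.7% of all genes, and 0 were lower (1 at an unadjusted p under 0.05), against 8.04%. These 19 were H1f2, every measured H2A and H2B gene and H4c1 (mean 0.30, adjusted p = 0.0374). After centring 16 were higher (20.5% of all genes) and 2 lower (21.9%). The count of 19 became 0 (0.0% of all genes) without siSelT-1 replicate 1 and 15 (17.0%) without siSelT-1 replicate 2.

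The constructs were then compared with each other, the comparison in which a dye effect cancels. Of the 25 histone genes, 0 passed for siSelT-1 minus siSelT-5 in limma, against 0.0631% of all genes (3 of 4754). At an unadjusted p under 0.05 the difference was lower for 18 histone genes, beside 1475 of all 4754 genes. It was higher for 1, H3c2, beside 222 of all genes. After centring, 15 histone genes were lower at such a p, beside 610 of all genes, and 1 was higher, beside 618. The difference was -1.37 for H2bc22 (95% interval -1.86 to -0.88), -1.36 for H2ac12 (-1.75 to -0.98) and -1.24 for H2bc13 (-1.65 to -0.84), each with an adjusted p of 0.0543, beside a median of -0.26 over all genes. H3c2 lay on the other side, at 0.72 (0.28 to 1.15, adjusted p = 0.0628). For H4c1 the difference was 0.03 (-0.43 to 0.49) and for H3c13 it was 0.07 (-0.62 to 0.75), intervals that hold 0.

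Both siSelT-5 arrays lay above both siSelT-1 arrays for 21 of the 25 histone genes, against 52.6% of all genes, and for 19 after centring, against 32.0%. These 21 included 17 of 17 H2A and H2B genes, H1f2 and 3 of the 5 H3 genes. Both siSelT-5 arrays lay below both siSelT-1 arrays for 2 of the 25, H3c2 and H4c14, against 11.9% of all genes, and for 3 after centring, against 28.3%. The number of histone genes that passed for the difference was 18 lower (28.0% of all genes) and 2 higher (9.76%) without siSelT-5 replicate 1. It was 18 lower (31.4%) and 1 higher (6.27%) without siSelT-5 replicate 2, and 0 without either siSelT-1 array. The siSelT-5 replicates spread more over all genes (root mean square SD 0.349) than the siSelT-1 replicates (0.164).

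**Figure D3:**
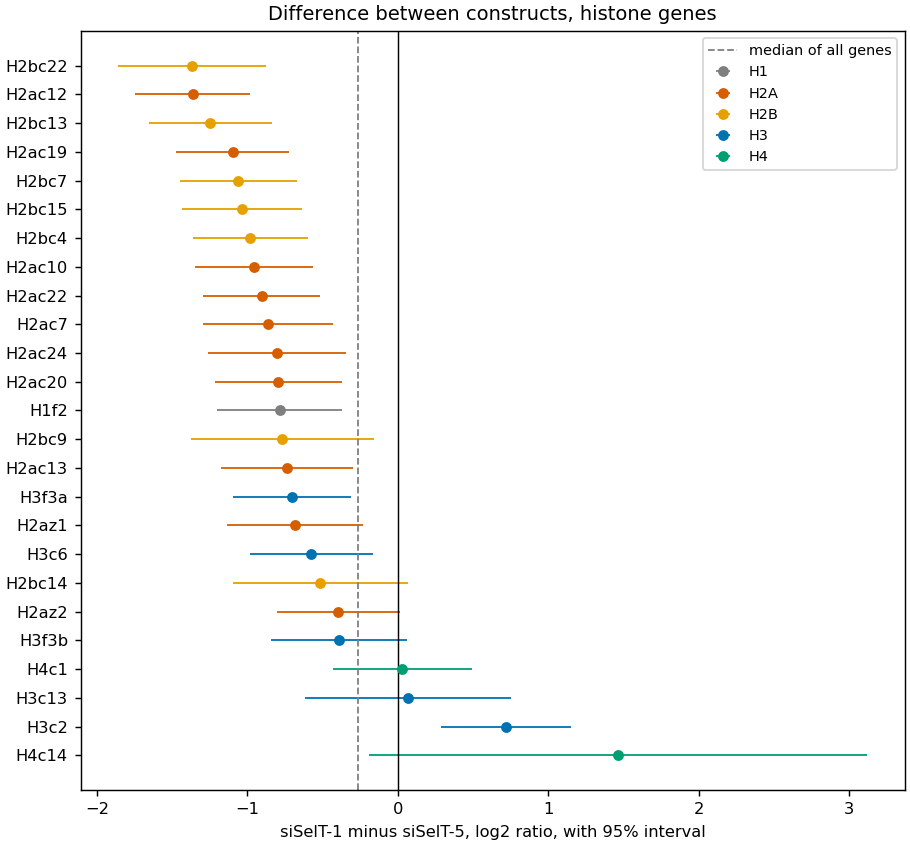
Difference in log2 ratio, siSelT-1 minus siSelT-5 (horizontal), for each of the 25 histone genes, with points for the estimate, bars for its 95% interval from limma, and colours for class; the dashed line is the median of all genes at -0.26. The difference runs from -1.37 for H2bc22 to 1.47 for H4c14, and the H2A, H2B and H1 genes lie to the left of the dashed line.

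Several H2A and H2B genes share a divergent promoter, and such neighbours could be set side by side. H2ac13 and H2bc13, which share the first window shown above, had siSelT-5 means of 1.31 and 1.75 and siSelT-1 means of 0.58 and 0.51. H2ac7 and H2bc7 had 1.33 and 1.46 with siSelT-5 and 0.46 and 0.40 with siSelT-1. H2ac22 and H2bc22 had 1.11 and 1.52 with siSelT-5 and 0.20 and 0.15 with siSelT-1. In these 3 pairs the H2B gene read higher with siSelT-5 and the H2A gene read higher with siSelT-1. The pair H2ac15 and H2bc15 had siSelT-5 means of 1.12 and 1.77, and on the 1 siSelT-1 array with both values H2ac15 read -0.28 and H2bc15 0.64, so here the H2B gene read higher with both constructs. H2ac12 and H2bc12, which share the second window, had siSelT-5 means of 1.41 and 0.48, and both read 0.11 on the 1 siSelT-1 array they share.

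The members with incomplete siSelT-1 values are given apart. H2ac15, H2ac18, H2bc12 and H4c9 had a value on 1 siSelT-1 array and both siSelT-5 arrays and were not among the 25. H2ac15 read -0.28 with siSelT-1 and 1.09 and 1.16 with siSelT-5. H2ac18 read -0.08, then 0.89 and 0.73. H2bc12 read 0.11, then 1.01 and -0.05, and H4c9 read 0.13, then 0.15 and 0.82. The siSelT-1 value was the lowest of the 3 in each of these genes except H2bc12. Among probes with several names, that of H2ac11 and H2ac7 read 0.62 and 0.49 with siSelT-1 and 1.44 and 1.40 with siSelT-5, close to the probe named for H2ac7 alone. The probe of H3c10 and H3c2 read 0.05 and 0.03, then -0.28 and -0.29, so it was below vector with siSelT-5 on both arrays.

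Probes with values on both siSelT-5 arrays and on no siSelT-1 array numbered 18 with a single histone name, standing for 17 genes, among 7460 probes of that kind. They held 9 H4 probes, 5 H3, 3 H2B and 1 H2A, whereas 10 H2A and 8 H2B probes but only 2 H4 probes had values on all arrays, a split that the presence of values alone defines. Their median siSelT-5 ratio was -0.31, beside -0.63 for all 7460 probes, so these probes as a body lay lower than the shared ones. As deposited, 0 histone probes were higher (2 at an unadjusted p under 0.05), against 1.17% of all such probes, and 6 were lower, against 40.4%. After centring on these probes, 2 were higher, against 6.64%, and 0 lower, against 7.18%. They had no siSelT-1 value, and the fit had 1 residual degree of freedom. Outside these 18, the probe named for H2bc21 and H2bc18 read -1.66 and -1.99 with siSelT-5. It passed as lower both as deposited (adjusted p = 0.000342) and after centring (-1.21, adjusted p = 0.0236). The probe named for H2bc21 and H3c2 read 0.58 and 0.48 and passed as higher only after centring (1.15, adjusted p = 0.0268).

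The 6 lower probes with a single name were all replication-dependent. H4c9 read -1.18 and -1.62, a mean of -1.40 ± 0.31 (SD, n = 2, adjusted p = 0.00202), and H4c3 read -1.41 and -1.37 (mean -1.39, adjusted p = 0.00195). H2bc8 read -1.70 and -0.75 (mean -1.22, adjusted p = 0.00621). H3c14, H4c2 and H3c15 followed, with means of -0.96, -0.89 and -0.86 and adjusted p of 0.018, 0.0371 and 0.0341, and none of the 6 passed after centring. At the other end, H2bc11 read 1.00 and 0.56 (mean 0.78, adjusted p = 0.0507), and one probe of H3c4 read 0.92 and 0.50 (mean 0.71, adjusted p = 0.073). These 2 were the single-name probes that passed as higher after centring, at 1.40 and 1.33. H4c11 and H4c18 came next, with means of 0.38 and 0.27 that did not pass. H2ax, the variant phosphorylated at DNA breaks, read 0.03 and -0.53.

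**Figure D4:**
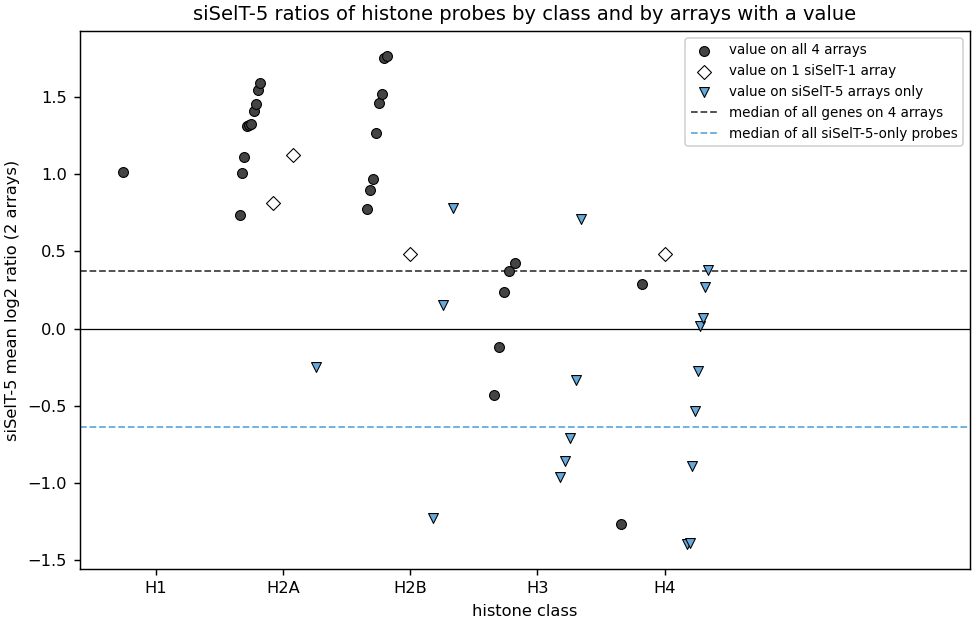
Mean log2 ratio of 2 siSelT-5 arrays (vertical) for every single-name histone probe with a value on both, by class, with filled circles for probes on all 4 arrays, diamonds for those on 1 siSelT-1 array and triangles for those on siSelT-5 arrays only. The dashed lines are the medians of all genes on 4 arrays at 0.38 and of all siSelT-5-only probes at -0.63; the filled H2A and H2B circles lie above 0.7 and most triangles lie below 0.

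Probes of one gene did not always give one value. The probes of H3c4 averaged 0.71 and -0.33 on the siSelT-5 arrays. For H4c9, the probe with a siSelT-1 value read 0.15 and 0.82 with siSelT-5, while the other read -1.18 and -1.62. One H2ac18 probe read -2.41 on its single array, where the other read 0.89. The probe of H3c2 alone read 0.56 and 0.64 with siSelT-1, but that shared with H3c10 read 0.05 and 0.03. With siSelT-5 these probes read 0.03 and -0.26, and -0.28 and -0.29. The probe shared with H2bc21 read 0.58 and 0.48. Single values of these copies are therefore uncertain, and the cause of the disagreement was not tested.

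Genes that act on histones were read from lists of names drawn up for this purpose, in which a gene could stand under an old and a new name. Of 22 names listed for stem-loop processing and histone transcription, 10 were measured. Of these, 4 were higher with siSelT-5 and 0 lower, beside 47.6% and 6.29% of all genes. After centring 1 was higher and 1 lower, beside 19.2% and 20.0%, and the median ratio was 0.21 as deposited. Slirp is a mainly mitochondrial RNA-binding protein rather than a histone mRNA factor, and stands in the list by name only. Its siSelT-5 mean was 0.85 (adjusted p = 0.00514), and it was the 1 listed gene higher after centring (0.46, adjusted p = 0.0488). The transcription factor E2f1 had a siSelT-5 mean of 0.56 (adjusted p = 0.0239). The stem-loop endonuclease Cpsf3 had 0.52 (adjusted p = 0.0183) and the RNA cofactor Srrt 0.40 (adjusted p = 0.0362). All 4 means lay above the median of 0.38 over all genes. Slbp, which binds the stem-loop of replication-dependent histone mRNAs, read 0.22 and -0.33 with siSelT-1 and -0.28 and -1.45 with siSelT-5. Its siSelT-5 mean of -0.86 ± 0.83 did not pass (adjusted p = 0.0516) and was -1.26 after centring (adjusted p = 0.0239).

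Histone chaperones and their acetyltransferase were measured for 11 of 25 listed names. Of these, 9 were higher and 0 lower with siSelT-5 (47.6% and 6.29% of all genes), with a median ratio of 0.83. After centring 6 were higher and 1, Ubn1, was lower (19.2% and 20.0% of all genes). Daxx, which deposits H3.3, read 0.51 and 0.69 with siSelT-1 and 1.18 and 0.82 with siSelT-5 (mean 1.00, adjusted p = 0.00318). Hat1, which acetylates new H4, read 0.16 and 0.22, then 0.97 and 1.08 (mean 1.03, adjusted p = 0.00213). Rbbp4, a subunit of the CAF-1 chaperone, was higher on both siSelT-1 arrays, at 1.26 and 1.17, than on the siSelT-5 arrays, at 0.72 and 0.29, a difference that did not pass (0.71, adjusted p = 0.0727). Npm1, a nucleolar chaperone, had a siSelT-5 mean of 0.98 (adjusted p = 0.00233). With siSelT-1, Daxx and Rbbp4 were the 2 of these 11 that passed, both higher, beside 10.3% of all genes.

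Replication genes were sparsely measured, at 5 of 26 listed S phase genes, 2 higher and 1 lower with siSelT-5, beside 47.6% and 6.29% of all genes, and 2 and 2 after centring, beside 19.2% and 20.0%. Mcm4, a subunit of the replicative helicase, read -0.08 and -0.03 with siSelT-1 and 1.36 and 1.32 with siSelT-5 (mean 1.34, adjusted p = 0.00202), and Pcna, the replication clamp, read -0.01 and -0.03, then 0.86 and 1.20 (mean 1.03, adjusted p = 0.00264). Mcm2, of the same helicase, fell with both constructs, at -0.85 and -1.03 with siSelT-1 and -0.72 and -1.10 with siSelT-5 (siSelT-1 mean -0.94, adjusted p = 0.0302; siSelT-5 mean -0.91, adjusted p = 0.00414). Rrm1, of ribonucleotide reductase, had a siSelT-5 mean of 0.05 that did not pass. The measured S phase genes thus moved in both directions, and their part in the histone ratios was not tested.

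Other nucleosome genes outside the histone symbol series were measured for 5 of 34 listed names, some of which are old names of genes inside that series. All 5 rose with siSelT-5 (47.6% of all genes), or 4 after centring (19.2%). Hmgn1, a nucleosome-binding protein, was high with both constructs, at 1.31 and 1.27 with siSelT-1 and 1.38 and 1.54 with siSelT-5 (siSelT-5 mean 1.46, adjusted p = 0.00202). Hmgn2 had a siSelT-5 mean of 1.08, Hmgb1 0.92 and the H2A variant gene Macroh2a1 0.80. None of the measured genes of these 4 lists passed for siSelT-1 minus siSelT-5. Among the fibroblast markers 1 gene did, Postn, which encodes the matrix protein periostin and is named after its values were seen, at -0.75 and -0.82 with siSelT-1 and 1.72 and 1.55 with siSelT-5 (adjusted p = 0.0219).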

How the data were processed

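The deposited values are log2 ratios by the reading used here, knockdown (Cy5) over vector (Cy3), 1 value per probe and array. Per the labels' protocols, 10 to 15 µg of total RNA was extracted with Trizol, copied with oligo-dT and coupled to dyes with the Fairplay II kit. The base of the logarithm, background correction, normalization and filter are not given in the sources used here, and neither is a genome build or scanner software. The depth of an array has no count, and the number of arrays limits the precision. A gene was the mean of its probes with 1 gene name (18129 probes, with 140 of several names and 4265 of none) and a value on all 4 arrays. Names matched through Entrez identifiers for 18041 probes, and 0 symbols changed.

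Ratios of all 4754 genes were fitted with limma 3.58.1 (lmFit and eBayes, R 4.3.3) as a mean per construct, which left 2 residual degrees of freedom, with Benjamini-Hochberg adjustment over all genes, two-sided, at 0.05. The spread in each test is that of the ratios between arrays, and the spread of the vector cultures was not estimated apart from it. Probes with values on siSelT-5 arrays only were fitted probe by probe (7460 probes, 1 residual degree of freedom). The scripts were tested on simulated data. Alternatives were centring, scaling, single probes, a looser filter on missing values, probes with several names, robust eBayes, a replicate block and each array left out. Every histone gene on all 4 arrays is named. Of siSelT-5-only probes with a single name the 4 highest, the 4 lowest and those that passed are named. Of each other list up to 4 genes with the smallest unadjusted p for both constructs are named. Ubn1, Rrm1, the members with other patterns of missing values and the siSelT-5-only probes with several names were named after their values were seen. The members and lists were chosen with earlier results of these data known. Replicate numbers were not taken as pairs, since same-numbered arrays deviated together with a correlation of only 0.0758. Replicates of one construct correlated at 0.844 (siSelT-1) and 0.66 (siSelT-5) across genes, which are not independent. Figures used matplotlib 3.10.9.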

Additional observations from a re-analysis of the deposited data

Results flagged for a closer look

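In 3 histone genes every siSelT-1 array had one sign and every siSelT-5 array the other. The share of all genes with such opposite signs was not counted. Of all genes, 52.6% had both siSelT-5 arrays above both siSelT-1 arrays, and 11.9% had them below. H3c6 was below vector with siSelT-1 and above it with siSelT-5, a difference of -0.57. H3f3a did the same, with a difference of -0.71. H4c14 was above vector with siSelT-1 and below it with siSelT-5, with a difference of 1.47. The difference itself was tested with limma and did not pass for any of them (adjusted p = 0.0757, 0.058 and 0.178). After centring, the siSelT-5 mean of H3c6 turned to -0.15 and that of H3f3a was 0.03.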

How the results depend on the processing

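No gene that passed as deposited changed direction under the alternatives run. With siSelT-5, H3c6, H3f3b and H4c1 passed only when centred on all values or in a fit without an array (0.45, 0.59 and 0.50 when centred on all values). They were -0.15, -0.02 and -0.105 when centred on shared probes, and did not pass there. The siSelT-5 median of H3 turned negative with centring. That of H4 ran from -1.10 to 0.13 with 1 array and was 0.29 over 3 genes with the looser filter. Leaving out 1 array gave 0 to 20 histone genes higher (0.0% to 55.8% of all genes) and 0 to 1 lower (0.0% to 14.7%) for both constructs, 0 to 13 (0.0% to 32.4%) and 0 to 2 (0.0% to 11.6%) for siSelT-1, 18 to 20 (31.0% to 55.3%) and 0 to 1 (3.11% to 13.1%) for siSelT-5, and 0 to 2 (0.0% to 9.76%) and 0 to 18 (0.0% to 31.4%) for siSelT-1 minus siSelT-5. The lone array of a construct was assumed to vary like the other construct's arrays. Centring on shared probes gave 2 lower for both constructs (21.9% of all genes), 2 higher for siSelT-1 (3.83%) and 3 lower for siSelT-5 (20.0%). Centring and scaling by the median absolute deviation gave 3, 2 and 2 lower, respectively. The share of all genes was not counted for this scaling, the looser filter or the replicate block. Centring on all values gave 2 higher for siSelT-1 (3.11% of all genes), 22 higher for siSelT-5 (63.4%) and 21 lower for the difference (52.0%). Requiring a value on 1 array of each construct gave 0 higher for siSelT-1. The replicate block gave 0 higher for siSelT-1 and 1 lower for siSelT-5, H4c14 (adjusted p = 0.0399), and changed no other call. For siSelT-5-only histone probes with a single name, centring on all siSelT-5-only probes gave 2 higher and 0 lower. For the same probes robust eBayes gave 1 higher, and the median ran from -0.51 to -0.32 with 1 array.

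Class medians moved with centring, for siSelT-1 to 0.094 (H1), 0.32 (H2A), 0.12 (H2B), 0.12 (H4) and 0.18 (replication-dependent), and for siSelT-5 to 0.62 (H1), 0.93 (H2A), 1.07 (H2B), -0.15 (H3), 0.92 (replication-dependent) and 0.19 (variant). Single probes gave H2B 0.24 and 1.36 and replication-dependent 0.29 and 1.29 for siSelT-1 and siSelT-5, and the looser filter 0.20 and 1.29, and 0.23 and 1.12. With 1 array per construct, siSelT-1 medians were 0.41 to 0.51 (H2A), 0.32 to 0.33 (H2B), -0.26 to -0.016 (H3) and 0.32 to 0.36 (replication-dependent), and siSelT-5 medians 1.29 to 1.43 (H2A), 1.39 to 1.45 (H2B) and 1.17 to 1.20 (replication-dependent). Centring left 1 higher gene (Slirp) and 1 lower gene (Slbp) of the stem-loop list, 1 lower chaperone gene and 2 lower S phase genes. The causes were not tested.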
